A study of Homo sapiens with 2 samples.

Results

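The genes described here are 10 negative feedback genes of mitogen-activated protein kinase (MAPK) signalling, 8 dual-specificity phosphatases (DUSP1, DUSP4, DUSP5, DUSP6, DUSP8, DUSP9, DUSP10 and DUSP16) and 2 Sprouty genes (SPRY2 and SPRY4). They were taken by gene name from the 58735 genes of the deposited count table, and were chosen by role and by their count difference between the libraries described here, in which DUSP9 is set against the others. All 10 were in the table, and all 10 passed the filter of at least 10 counts in at least 1 library, as did 17887 genes in all. The data are 1 RNA sequencing library of MAEL WT and 1 of MAEL KO PLC8024 cells, also named PLC/PRF/5, a hepatoma cell line. The WT cells are labelled wildtype by genotype. A figure caption of the paper, for its sorafenib assay, calls WT a nontarget control, so whether the sequenced WT cells carry a construct is not known. The KO cells were made with an sgRNA/Cas9 plasmid against MAEL, a cancer/testis gene, and were sorted for mCherry and grown from single cells, so a difference between the libraries can belong to the clone as well as to the knockout. The design asks what the loss of MAEL changes in the mRNA of these cells. With 1 library per condition there is no replicate error, no test was run and every difference below is a difference between these 2 libraries.

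MAPK cascades relay signals from growth factor receptors and from stress through RAS, RAF and MEK to ERK, or through parallel kinases to JNK and p38. The MAPK phosphatases remove phosphate from both the threonine and the tyrosine of the activation loop of these kinases, and many of them are themselves switched on by the pathway they shut off. By their textbook roles, DUSP1, DUSP4 and DUSP5 are inducible nuclear enzymes, DUSP6 and DUSP9 are cytoplasmic enzymes that prefer ERK, and DUSP8, DUSP10 and DUSP16 prefer JNK and p38. The Sprouty proteins act further up, between receptor tyrosine kinases and RAF.

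Sequencing depth was close, with 19904136 counts for MAEL WT and 20833332 for MAEL KO. The targeted gene, MAEL, was counted once in WT and 0 times in KO, at or under the floor of 3 counts used here, so the transcript does not check the labels. Of 10 hepatocyte markers, all 10 were detected and all 10 were higher in MAEL KO with TMM factors, 9 of them also with total counts, and their summed level was 1648 FPKM (deposited values per kilobase of gene length, scaled for library size) in WT and 4885 FPKM in KO. The summed level of 4 leukocyte markers was 0.630 and 0.179 FPKM, that of 4 endothelial markers 2.09 and 2.79 FPKM and that of 5 fibroblast and stellate markers 1.27 and 0.278 FPKM. PTPRC, CD3E, KDR, VWF, COL1A2, DCN and LUM were at or under 3 counts in both libraries. The hepatocyte markers therefore moved with every difference given below, and their part in it was not tested. In RNA from a whole culture, fewer cells with a transcript and less of it per cell cannot be told apart.

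The feedback genes did not move as a block. DUSP9 was 6.11-fold higher in MAEL KO and DUSP6 2.23-fold higher, whereas the 6 other phosphatases were lower, from 1.44-fold for DUSP1 to 3.70-fold for DUSP5, and the Sprouty genes differed little. These folds come from counts scaled by edgeR's TMM factors with 1 added, and the 95% intervals are exact Clopper-Pearson intervals that cover counting error only. The interval of the log2 fold change lay above 0 for 3 of the genes and below 0 for 7, beside 6220 above and 6207 below among all 17887 genes tested. The median of the 10 was -0.52 against -0.04 for all tested genes. Past a log2 fold change of 2, the size used in the study's methods, 1 of the 10 was higher and 0 were lower, and that size was passed by 2.16% of all tested genes in the higher and 5.64% in the lower direction. Past 1, 2 were higher and 2 were lower, beside 10.2% and 16.5% of all tested genes, or 9.23% and 9.16% of the 12023 genes with at least 100 counts in 1 library, as all 10 had. Since the genes were picked with these values known, the counts describe them and test nothing.

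**Figure D1:**
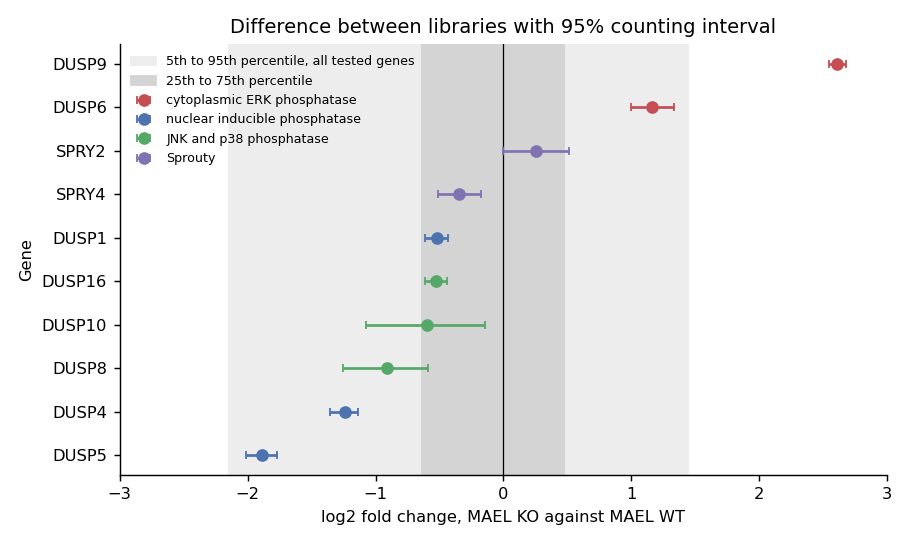
Log2 fold change of each gene in MAEL KO against MAEL WT on the horizontal axis, with 95% counting intervals as bars and colours for the textbook class. Grey bands give the spread of all tested genes. DUSP9 at 2.61 lies beyond the band that ends at 1.44, the 95th percentile, and the others lie between -1.89 and 1.16, inside the outer band.

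Among the cytoplasmic ERK phosphatases, DUSP9 is on the plus strand of chromosome X (GRCh38), positions 153642492 to 153651326, where 3 transcripts with 4 exons at most are annotated. WT cells gave 2319 counts and KO cells 12250, which is a level per length of 38.2 FPKM and 233 FPKM. The KO library is the high one by far. The log2 fold change was 2.61 (95% interval 2.55 to 2.68), and 0.967% of the tested genes had one as high or higher. Ranked by FPKM among the tested genes, DUSP9 stood at place 1040 in WT and 144 in KO. Of the 312 genes with at least its mean normalized count, DUSP9 ranked 4 by log2 fold change. That mean includes its high KO count, and DUSP9 was singled out with its values known. These ranks and the share therefore describe DUSP9 and test nothing. DUSP6, which is induced by ERK and acts on it, lies on chromosome 12 from 89347232 to 89353271 on the minus strand. It went from 441 to 853 counts, or from 4.35 to 9.71 FPKM, and its log2 fold change was 1.16 (95% interval 0.99 to 1.33). Both chosen genes of this class were thus higher in MAEL KO, but from unequal starting points. DUSP7, a further gene of the class outside the 10, had 372 and 358 counts. Its log2 fold change was 0.15 (95% interval -0.06 to 0.37), which spans no change. Per length, DUSP9 stood 8.77 times above DUSP6 in WT and 24.0 times above it in KO.

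The nuclear phosphatases among the 10 genes were all lower in MAEL KO, by unequal amounts. DUSP2, a nuclear enzyme outside the 10, had 8 and 12 counts, too few to place it. DUSP5, a phosphatase of ERK, lies on chromosome 10 from 110497838 to 110511544 on the plus strand and had 2818 counts in WT and 657 in KO. Its level was 49.3 and 13.3 FPKM, and its log2 fold change of -1.89 (95% interval -2.02 to -1.77) was the lowest of the 10. With total counts or upper-quartile factors in place of TMM factors, it passed -2. DUSP4, on chromosome 8 from 29333064 to 29350668, went from 2582 to 943 counts, 16.3 to 6.85 FPKM, with log2 fold change -1.24 (95% interval -1.35 to -1.13). DUSP1, an early response gene on chromosome 5 from 172768090 to 172771195 whose enzyme acts on p38, JNK and ERK, went from 2607 to 1568 counts. Its level was 59.0 and 41.0 FPKM and its log2 fold change -0.52 (95% interval -0.61 to -0.43). DUSP1 had the highest level of the 10 genes in the WT library and the second highest in the KO library. DUSP1, DUSP4 and DUSP5 started from like counts in WT, between 2582 and 2818, and ended between 657 and 1568 in KO. The ratio of DUSP5 to DUSP1, which does not depend on the scaling between libraries, changed to 0.388 times its WT value (95% conditional exact interval 0.348 to 0.431), and that of DUSP4 to DUSP1 to 0.607 times (0.550 to 0.670).

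Among the phosphatases of JNK and p38, DUSP16 was the well-expressed one. It lies on chromosome 12 from 12474210 to 12562383 on the minus strand and had 3079 counts in WT and 1847 in KO, or 24.6 and 17.0 FPKM, with log2 fold change -0.53 (95% interval -0.61 to -0.44). DUSP8, on chromosome 11 from 1554044 to 1571920, had 245 and 112 counts, 2.43 and 1.28 FPKM, and log2 fold change -0.91 (95% interval -1.25 to -0.59). DUSP10, on chromosome 1 from 221701424 to 221742176, had 109 and 62 counts, 1.71 and 1.12 FPKM, and log2 fold change -0.60 (95% interval -1.08 to -0.14), the widest interval of the 10. All of this class were lower in MAEL KO. The ratio of DUSP10 to DUSP16 changed by a factor of 0.948 (95% interval 0.679 to 1.31), which spans no change, and that of DUSP8 to DUSP16 by 0.762 (0.599 to 0.964). DUSP1 and DUSP16, of unlike class, kept nearly the same proportion, with DUSP1 2.40 times DUSP16 per length in WT and 2.41 times in KO, and a factor of 1.00 (95% interval 0.920 to 1.09).

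The Sprouty genes, which encode membrane-associated inhibitors of receptor tyrosine kinase signalling, differed least. SPRY2, on chromosome 13 from 80335976 to 80340951, had 253 counts in WT and 261 in KO, or 3.81 and 4.53 FPKM. Its log2 fold change of 0.25 had a 95% interval whose lower end, 0.000213, was next to 0, and with total counts the sign turned, to -0.02. SPRY4, on chromosome 5 from 142310427 to 142326455, had 725 and 493 counts, 5.05 and 3.96 FPKM, and log2 fold change -0.35 (95% interval -0.51 to -0.18). SPRY4 was the higher of the pair per length in WT, 1.33 times SPRY2, and the lower in KO, 0.874 times. The factor between those ratios was 0.659 (95% interval 0.533 to 0.816).

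**Figure D2:**
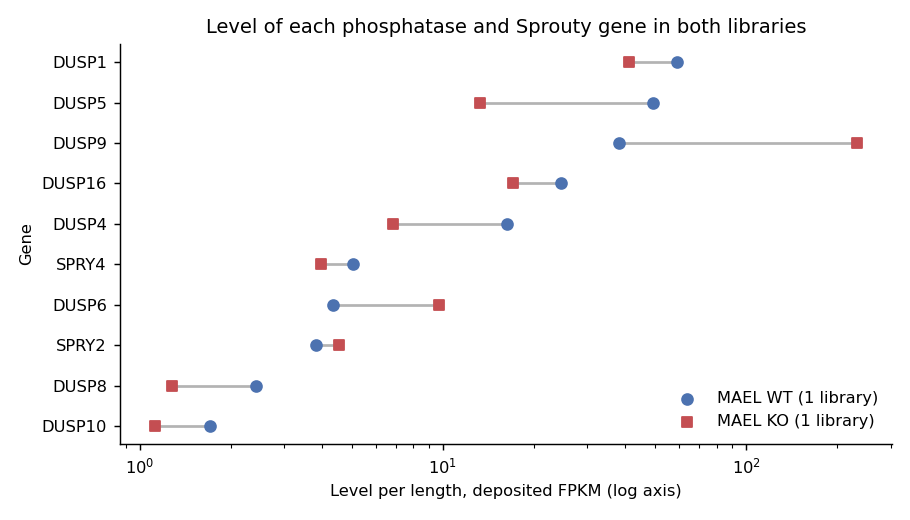
Level per length (deposited FPKM, log axis) of the 10 genes in the MAEL WT library (circles) and the MAEL KO library (squares), ordered by the WT level. DUSP9 goes from 38.2 to 233 FPKM, DUSP6 and SPRY2 also lie to the right in KO, and the 7 others lie to the left.

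Through these differences the make-up of the DUSP transcripts turned over. The 8 DUSP genes summed to 195.8 FPKM in WT and 323.0 FPKM in KO. Without DUSP9 the sum of the 7 others was 157.7 FPKM in WT and 90.2 FPKM in KO, so the total was higher in KO while the rest together was lower. DUSP9 made up 19.5% of the summed level in WT and 72.1% in KO. In WT, DUSP1 led with 30.1%, followed by DUSP5 with 25.2%, DUSP9, and DUSP16 with 12.6%. In KO, DUSP1 came after DUSP9 with 12.7%, and DUSP5 held 4.10%. DUSP9 and DUSP6 together had 42.5 FPKM in WT and 242.5 FPKM in KO, the nuclear class 124.6 and 61.1 FPKM, and the JNK and p38 class 28.7 and 19.4 FPKM. Over these 8 genes, classes by summed level therefore ranked nuclear, cytoplasmic, JNK and p38 in WT. In KO the order was cytoplasmic, nuclear, JNK and p38. DUSP7, at 3.01 and 3.34 FPKM, and DUSP2, at 0.189 and 0.328 FPKM, are further cytoplasmic and nuclear enzymes not in these sums.

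**Figure D3:**
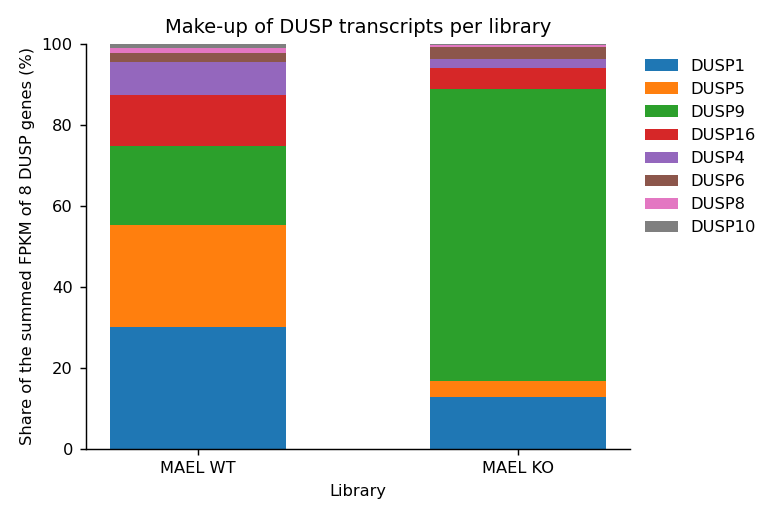
Share of each of the 8 DUSP genes in their summed FPKM (vertical axis, percent) in the MAEL WT and the MAEL KO library. The DUSP9 segment takes 19.5% in WT and 72.1% in KO, and the DUSP5 segment 25.2% and 4.10%.

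Within each library, DUSP9 could be set against each of the others free of any scaling between libraries. Per length it stood at 0.647 times DUSP1 and 0.775 times DUSP5 in WT, below both, and at 5.68 times DUSP1 and 17.6 times DUSP5 in KO. The ratio of DUSP9 to DUSP5 changed 22.7-fold (95% interval 20.6 to 24.97), the most of the 9 ratios, and that to DUSP6 changed 2.73-fold (95% interval 2.41 to 3.09), the least. The ratio changed 14.5-fold for DUSP4, 11.6-fold for DUSP8, 9.28-fold for DUSP10, 8.80-fold for DUSP16, 8.78-fold for DUSP1, 7.77-fold for SPRY4 and 5.12-fold for SPRY2. All 9 intervals lay above 1. DUSP9 had the highest log2 fold change of the 10 genes, so each of these ratios had to rise, and their direction tests nothing.

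Sequences upstream of RefSeq starts are shown for DUSP9 and DUSP6, the chosen phosphatases that were higher in MAEL KO. Sequences are also shown for DUSP1 and DUSP8, lower ones that carry whole cAMP response elements (CRE). They are the 250 bases before the RefSeq start, 5′ to 3′ on the gene's strand, in GRCh38.p14, at chrX:153642191-153642440 (plus strand), chr12:89352502-89352751 (minus strand), chr5:172771196-172771445 (minus strand) and chr11:1572272-1572521 (minus strand). Capitals mark the CRE core TGACG, the ETS core GGAAG and the CCAAT box on either strand. A RefSeq start need not be the outer end of the gene positions given above. The DUSP6 and SPRY4 windows lie inside those positions, as do some windows of DUSP9, SPRY2 and DUSP10.
DUSP9: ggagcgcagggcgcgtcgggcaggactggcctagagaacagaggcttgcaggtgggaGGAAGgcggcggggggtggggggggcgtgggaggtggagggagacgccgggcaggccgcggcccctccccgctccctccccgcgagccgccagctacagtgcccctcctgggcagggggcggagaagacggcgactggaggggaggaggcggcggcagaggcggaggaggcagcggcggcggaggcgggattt
DUSP6: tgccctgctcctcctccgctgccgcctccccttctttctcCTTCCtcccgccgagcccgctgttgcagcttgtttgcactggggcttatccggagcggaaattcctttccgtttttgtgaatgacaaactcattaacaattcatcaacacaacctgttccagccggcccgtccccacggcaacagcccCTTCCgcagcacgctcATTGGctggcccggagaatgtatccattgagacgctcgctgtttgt
DUSP1: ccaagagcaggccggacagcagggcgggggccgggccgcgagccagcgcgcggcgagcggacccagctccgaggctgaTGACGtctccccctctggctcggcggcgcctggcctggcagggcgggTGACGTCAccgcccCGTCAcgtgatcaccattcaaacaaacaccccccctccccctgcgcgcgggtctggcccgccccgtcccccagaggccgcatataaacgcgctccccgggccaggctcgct
DUSP8: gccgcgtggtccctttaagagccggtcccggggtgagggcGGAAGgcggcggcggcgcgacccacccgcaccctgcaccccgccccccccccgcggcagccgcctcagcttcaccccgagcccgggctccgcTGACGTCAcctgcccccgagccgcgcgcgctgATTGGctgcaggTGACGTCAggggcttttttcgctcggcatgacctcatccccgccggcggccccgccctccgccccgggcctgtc
RefSeq starts were matched for 8 of the 10 genes, with 12 windows in all. DUSP4 and DUSP5, the lowest of the 10 by log2 fold change, had no match, so their upstream sequences were not searched. The whole CRE, TGACGTCA, which contains the core on both strands, was found once upstream of DUSP1 and 2 times upstream of DUSP8, against a match in 1.65% of all 35116 windows of the same length. The core was found 4 times in each of these windows, once in 1 of 3 SPRY2 windows and once in the SPRY4 window, and 21.2% of all windows held it. Neither DUSP9 window, the DUSP6 window, the DUSP16 window nor either DUSP10 window held it. The ETS core was found once in each DUSP9 window, 2 times upstream of DUSP6, once upstream of DUSP8, once in 1 of the 2 DUSP10 windows and 1, 3 and 1 times in the 3 SPRY2 windows, and 65.1% of all windows held it. The DUSP1, DUSP16 and SPRY4 windows did not hold it. The CCAAT box was found once each upstream of DUSP6 and DUSP8 and 4 times in 1 of the 2 DUSP10 windows, and 32.0% of all windows held it. The AP-1 site TGANTCA and the CArG box of serum response factor were in none of the 12 windows, and 6.57% and 1.16% of all windows held them. DUSP9's first window was 76.4% G and C, and the median over all windows was 58.0%. These matches describe the letters of the windows only.

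The place of the genes and the reads they could share with others were looked at next. Around DUSP9, 15 tested genes start within 250 kb, with a median log2 fold change of -0.16. Past 1, 4 of the 15 were higher and 2 were lower, beside 10.2% and 16.5% of all tested genes. One of the higher ones, the pseudogene AF274858.1, had only 3 and 14 counts. SLC6A8, a creatine transporter gene that starts 45.6 kb away, was the highest neighbour with more than 100 counts, at 1.25 (674 and 1384 counts). HAUS7 and TREX2 were at 1.15 and 1.15 but rested on 36 and 70 and on 14 and 28 counts. The well-counted BCAP31 and SSR4 were at 0.31 and -0.56. No gene of the table overlapped DUSP9, and none was listed as its pseudogene. Genes on the opposite strand overlapped DUSP1, DUSP6, DUSP8, DUSP16 and SPRY4, each with at most 27 counts in a library, and all but 1 of them had fewer counts in KO. Whether counting used strand is not stated, so reads of such a pair cannot be told apart. DUSP8P5, a processed pseudogene of DUSP8, had 61 and 38 counts beside the 245 and 112 of DUSP8, so the DUSP8 value is uncertain. DUSP5P1 had 20 and 14 counts.

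**Figure D4:**
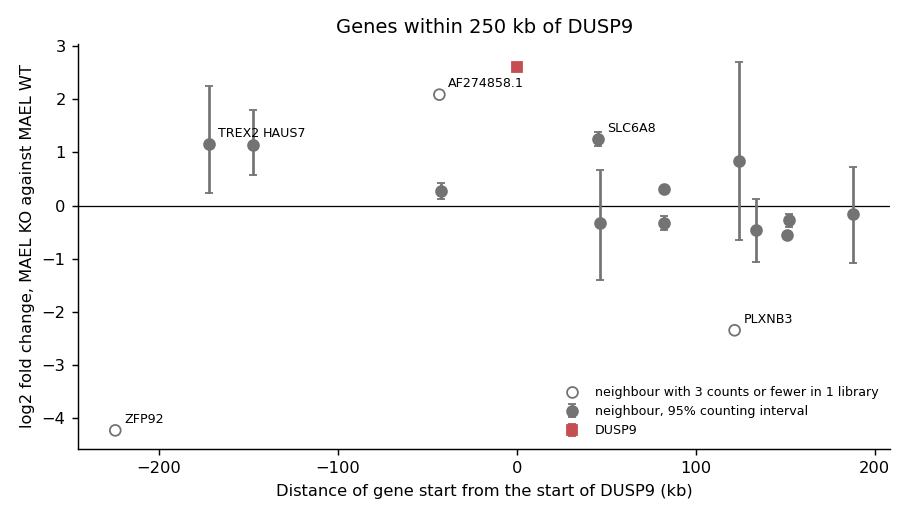
Log2 fold change in MAEL KO against MAEL WT (vertical axis) of tested genes that start within 250 kb of DUSP9, by distance (horizontal axis, kb), with 95% counting intervals. Open circles had 3 counts or fewer in 1 library and have no interval drawn. DUSP9 at 2.61 lies above all 15 neighbours, whose highest value with more than 3 counts in both libraries is 1.25.

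Over the 2 libraries, likeness to DUSP9 can be measured only as nearness of the log2 fold change. Among 778 other protein-coding genes whose mean normalized count was within 2-fold of that of DUSP9, the nearest were MKI67, a marker of cycling cells, at 2.62 and RAB11FIP4 at 2.56. TTC39C at 2.28, GPC3, an oncofetal glypican, at 2.95 and MCM7, a subunit of the replicative helicase, at 2.27 came next.

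The rest of the MAPK feedback machinery was read from lists written with earlier results of these data known. Among the 3 genes listed as other MAPK phosphatases, which include a relative without activity, none passed a log2 fold change of 1. DUSP7, the third cytoplasmic ERK phosphatase, had 372 and 358 counts and log2 fold change 0.15 (95% interval -0.06 to 0.37), which spans no change, and -0.12 with total counts. DUSP2, a nuclear enzyme best known from leukocytes, had 8 and 12 counts, and STYXL1, a catalytically dead relative, 885 and 387 (-0.98 on the log2 scale). Of the 16 atypical DUSPs and related phosphatases, 14 were tested, with a median of -0.23. Past 1, 0 of the 14 were higher and 3 were lower, beside 10.2% and 16.5% of all tested genes. DUSP13 had 153 and 16 counts (-2.98), DUSP23 104 and 34 (-1.38) and DUSP15 277 and 93 (-1.36). DUSP18 and DUSP22 were at -0.68 and -0.56. At the other end, STYX was at 0.72, RNGTT, the mRNA capping enzyme, at 0.53, and DUSP28, DUSP3 and DUSP12 were at 0.06, 0.04 and -0.15, with intervals that span 0. DUSP21 and DUSP26 had 0 counts in both libraries, which allows up to 0.151 CPM in WT and 0.144 in KO.

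Of the 5 other Sprouty and Spred genes, SPRED3 went from 179 to 34 counts (-2.16) and SPRY3 from 46 to 8 (-2.19). Past 1, 0 of the 5 were thus higher and 2 were lower, beside 10.2% and 16.5% of all tested genes. SPRY1 was at 0.56, SPRED2 at 0.19 and SPRED1 at 0.14, the last with an interval that spans 0. The 15 other inhibitors of RAS and ERK signalling had a median of -0.04, with 1 higher and 1 lower past 1, where 10.2% and 16.5% of all tested genes lay. PEBP1, the RAF kinase inhibitor protein, was the high one, with 1896 and 5425 counts, 48.7 and 160.8 FPKM and log2 fold change 1.73 (95% interval 1.65 to 1.80). LRIG1, RASA2, RASAL2 and TOB1 were at 0.64, 0.49, 0.42 and 0.30. At the low end, RASAL1 was at -1.23 on 53 and 19 counts, the ubiquitin ligases CBL and CBLB were at -0.80 and -0.68, IL17RD at -0.53 and PEA15, which holds ERK in the cytoplasm, at -0.52. ERRFI1, the feedback inhibitor of EGFR, had 5621 and 4109 counts (-0.24).

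Genes that ERK signalling is known to raise were lower in MAEL KO more often than higher. Of 15 on the list, 13 were tested, with a median of -0.80, and past 1 there were 5 lower and 1 higher, beside 16.5% and 10.2% of all tested genes. Most of the 5 are immediate-early or AP-1 genes. EGR1 went from 1883 to 304 counts (-2.42), FOSL1 from 1320 to 254 (-2.16), PHLDA1 from 5788 to 1616 (-1.63), IER3 from 5818 to 1750 (-1.52) and FOS from 334 to 140 (-1.04). The ETS factors ETV4 and ETV5, both classed as ERK outputs together with DUSP6, went opposite ways. ETV4 had 2709 and 6228 counts (log2 fold change 1.41, 95% interval 1.35 to 1.48) and ETV5 808 and 374 (-0.90, -1.08 to -0.72). CCND1, the cyclin of early G1, was at 0.66, MYC at 0.60, ETV1 at 0.48 and IER2 at -0.09. EPHA4 and EGR2 were at or under 3 counts in both libraries, and no fold is given for them.

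The cascades that the feedback genes act on were read in the same way. Of 16 genes of the ERK cascade, with a median of 0.12, 0 were higher and 1 was lower past 1, beside 9.23% and 9.16% of all tested genes with at least 100 counts, as all 16 had. The one was KSR1, a scaffold of RAF and MEK, with 668 and 259 counts (-1.15). The adaptor SHC1 was at -0.69, SOS2 and SOS1 at -0.53 and -0.36, and MAP2K2 at 0.01. HRAS was at 0.93, NRAS at 0.50 and BRAF at 0.35. With total counts the median of the cascade was -0.16. Of 16 tested genes of the JNK, p38 and ERK5 cascades, with a median of 0.21, 1 was higher and 1 was lower past 1, beside 10.2% and 16.5% of all tested genes. MAPK13, the delta form of p38, had 937 counts in WT and 73 in KO (-3.46, 95% interval -3.84 to -3.13), and MAP2K6, a kinase that activates p38, had 124 and 366 (1.76, 1.47 to 2.08). MAP2K3, which also activates p38, was at 0.97, MAPK14, its alpha form, at 0.57, MAPK8 at 0.41 and MAP2K4 at 0.34. MAP3K5, MAP2K5, MAPK11 and MAPK7 were at -0.80, -0.70, -0.36 and -0.20.

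**Figure D5:**
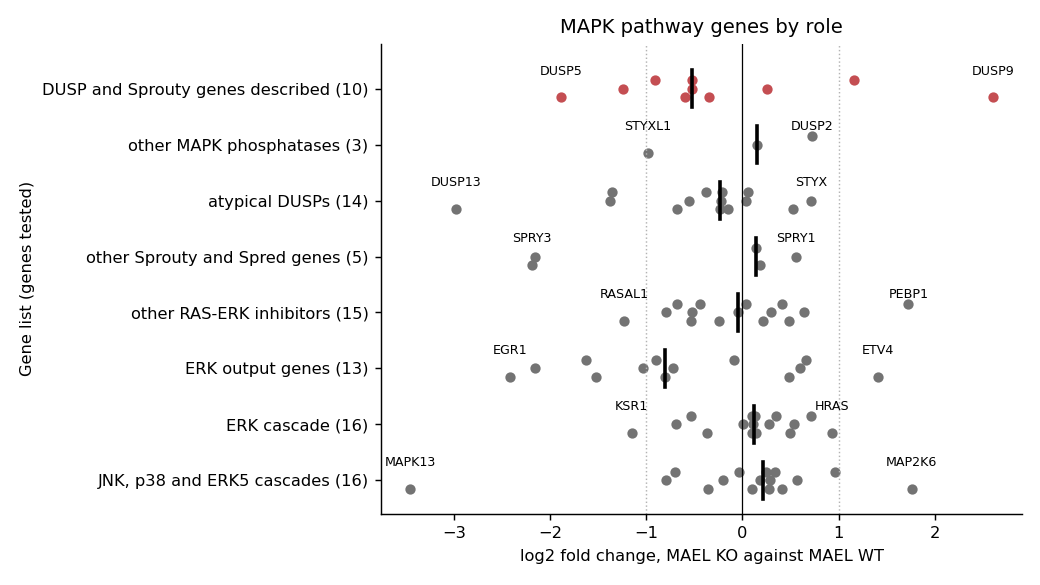
Log2 fold change in MAEL KO against MAEL WT (horizontal axis) of each tested gene, in rows by role with the number tested. Thick bars are medians and dotted lines mark 1 and -1. The row of ERK output genes has its median at -0.80 and that of the 10 feedback genes at -0.52, and DUSP9 at 2.61 is the highest point of all rows.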

How the data were processed

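Libraries of PLC8024 RNA, 1 MAEL WT and 1 MAEL KO, were run on a HiSeq instrument. The authors deposited counts per gene, not normalized, and FPKM values, which use a library size that the authors rescaled between libraries. The submitters' processing notes list HISAT2 2.0.5, featureCounts 1.5.0-p3 and hg19, but all 58735 genes matched GENCODE 29 on GRCh38 in identifier and position. How multi-mapped reads were counted is not given in the sources used here.

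Counts were scaled by edgeR 4.0.16 TMM factors in R 4.3.3 (DESeq2 1.42.0 for other size factors), and log2 fold changes were computed with 1 added in Python 3.11.15, NumPy 2.4.6, pandas 2.3.3 and SciPy 1.17.1. Figures were drawn with matplotlib 3.10.9. Intervals (95%, Clopper-Pearson, or conditional exact for ratios) and the floor of 3 counts cover counting error only. No test was run, since 1 library per condition leaves no replicate error. The steps were tested on simulated data.

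The genes and lists were chosen with earlier results of these data known. Genes named are the 10 feedback genes, MAEL, up to 5 at each end of each list, genes overlapping or near a feedback gene and the 5 nearest to DUSP9. ERRFI1, ETV5 and the genes named near feedback genes other than DUSP9 were added after their values were seen. A few genes that this choice covers are left out. Alternatives were other scalings, FPKM ratios, other added counts, count filters and a threshold of 1.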

Additional observations from a re-analysis of the deposited data

How the results depend on the processing

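Direction was kept for 9 of the 10 feedback genes under all alternatives run, while SPRY2 went to -0.021 with total counts, which moved the median over all genes tested from -0.04 to -0.31. Upper-quartile factors shifted it to -0.15. DUSP9 was at 2.33 with total counts and 2.50 with upper-quartile factors, and between 2.61 and 2.64 under DESeq2 size factors, FPKM ratios and other added counts. Of 60 such values of the 10 genes, 48 stayed within their counting interval and 11 moved, all with those 2 scalings. The FPKM values already carry a rescaled library size, and their median over all genes tested was -0.04, as with TMM factors. Other added counts hardly move genes with many counts. Staying within the interval under these settings is therefore a weak check. The number lower past 2 went from 0 to 1, DUSP5, with total counts and with upper-quartile factors. DUSP9 made up 16.3% and 67.0% of the raw counts of the 8 DUSP genes, a share that does not allow for gene length. At a threshold of 1 the feedback genes had 2 higher and 2 lower, atypical DUSPs 3 lower, other Sprouty and Spred genes 2 lower, RAS and ERK inhibitors 1 higher and 1 lower, ERK output genes 1 higher and 5 lower, the ERK cascade 1 lower and the JNK, p38 and ERK5 cascades 1 higher and 1 lower. With total counts the medians changed sign to -0.12 for the other MAPK phosphatases, -0.13 for other Sprouty and Spred genes, -0.16 for the ERK cascade and -0.066 for the JNK, p38 and ERK5 cascades. For genes with at least 100 counts they changed sign to -0.41 for the other MAPK phosphatases and 0.042 for RAS and ERK inhibitors, and 1 other Sprouty or Spred gene was lower past 2, since that filter left fewer genes. Counts over all genes past 2 (387 higher and 1008 lower) were 269 and 1309 with total counts, 250 and 513 with 5 added, 185 and 283 with the filter at 100 counts, 1029 and 1773 unfiltered, and at a threshold of 1 they were 1827 and 2951. Leaving out a library was not possible. No paired analysis was possible because each condition has 1 library. DUSP10, with 109 and 62 counts, is the gene most limited by depth.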

Other observations

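Tested genes within 250 kb of the other feedback genes were fewer. Near DUSP5, RBM20 had 175 and 19 counts (log2 fold change -2.93), while SMC3, a cohesin subunit gene, had 1942 and 3049 (0.86) and SMNDC1 954 and 993 (0.27). Of the 6 near DUSP6, 0 were higher past 1 and 3 were lower, beside 10.2% and 16.5% of all tested genes. Each of those 3 had at most 13 counts. POC1B, with 454 and 306 counts, was at -0.36. The 8 near DUSP1 had a median of 0.32 and the 8 near DUSP16 a median of -0.10, with the genes themselves at -0.52 and -0.53. No tested gene started within that distance of SPRY2 or DUSP10.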
